A study of Mus musculus with 10 samples.

Results

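The genes described here are 8 that mast cells use to make, release or receive signals: the granule proteases Cma1, Cpa3, Mcpt4 and Tpsb2, the IgE receptor chains Fcer1a and Ms4a2, the histamine-making enzyme Hdc and the cytokine Il4. They were picked by name from among 18194 genes with a probe set of their own, and 11 probe sets measure them. Where a gene had more than 1 probe set, the brightest by mean over the 10 arrays led and the others served as a check, so brightness itself is no finding. The names were proposed with earlier results of these data known, in particular the size of the Cma1 difference at P14, so the values below are foremost a description. Adjusted p-values at P14 for Cpa3, Mcpt4, Tpsb2 and Hdc are descriptive too, because the list was drawn up with that contrast known. They are no independent support.

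Lung RNA of ICR mice was measured on 10 Affymetrix mouse expression arrays of 45101 probe sets. Newborn pups breathed 80% oxygen (hyperoxia, used to induce bronchopulmonary dysplasia, a lasting lung injury known from preterm infants on oxygen) or room air, starting no later than 12 h after birth. Lungs were taken at postnatal day 14 (P14) or day 29 (P29), giving 3 P14 hyperoxia, 2 P14 room-air, 3 P29 hyperoxia and 2 P29 room-air arrays. Pups of all groups were pooled before they were divided at random, and nursing dams changed between the groups every 24 h. All groups were ICR lung, no mutation is named, and the labels give no recovery period in room air, so exposure length and age go together. Separate animals per array are not stated in the labels, so p-values cover only the spread among these samples, and that spread may be technical.

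Mast cells are tissue-resident immune cells that store histamine, heparin and proteases in granules and release them when IgE bound to its surface receptor is cross-linked, among other triggers. Mouse mast cells of connective tissue carry chymases, tryptases and carboxypeptidase A3 together, whereas mucosal mast cells carry other chymases. In the mouse lung these cells lie mostly around large airways and in the pleura, and they are few in the alveolar tissue. Their RNA is a small part of whole-lung RNA, and in bulk RNA more cells of a type and more RNA per cell cannot be told apart.

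All values are log2 signal as deposited. Signals of different genes come from different probes and are not compared with each other. A gene was tested where its leading probe set reached 5 on at least 2 arrays, which 14989 genes did. By this filter 6 of the 8 mast cell genes were tested, and Fcer1a and Il4 were not. Ms4a2 lay just inside the filter, reaching 5 on 2 P14 hyperoxia and 3 P29 hyperoxia arrays and on 0 room-air arrays. It entered the test only through its hyperoxia arrays and so had to be higher there. Il4 lay outside it, with a highest value of 4.08. Differences are hyperoxia minus room air, or P29 minus P14, with the SE of a limma fit over all 10 arrays, and p-values are two-sided and adjusted by Benjamini-Hochberg over the 14989 genes.

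Cma1 encodes mast cell protease 5, the mouse member of the alpha-chymase family, and Cpa3 encodes carboxypeptidase A3, which is stored with it. Mcpt4 encodes a beta-chymase with chymotrypsin-like cleavage. Cma1 and Mcpt4 lie in the same protease cluster on chromosome 14, with 6 annotated genes between them. The promoters of these genes are shown because the mast cell transcription factors of the GATA family are known to bind short motifs built on the letters GATA in such genes. Each line gives the 250 bases upstream of the annotated start from RefSeq, build GRCm38.p6, all on the minus strand, written 5′ to 3′. Capitals mark the motif matches on either strand. The motifs searched were AGATAA with its variant AGATAG, and TGATAA with its variant TGATAG. The stretches are chr14:55944676-55944925 for Cma1, chr3:20242182-20242431 for Cpa3 and chr14:56062311-56062560 for Mcpt4.
Cma1: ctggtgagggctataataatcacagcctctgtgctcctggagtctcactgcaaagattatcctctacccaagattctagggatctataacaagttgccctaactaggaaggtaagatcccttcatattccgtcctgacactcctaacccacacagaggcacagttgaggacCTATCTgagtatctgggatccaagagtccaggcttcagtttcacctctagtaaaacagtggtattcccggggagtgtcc
Cpa3: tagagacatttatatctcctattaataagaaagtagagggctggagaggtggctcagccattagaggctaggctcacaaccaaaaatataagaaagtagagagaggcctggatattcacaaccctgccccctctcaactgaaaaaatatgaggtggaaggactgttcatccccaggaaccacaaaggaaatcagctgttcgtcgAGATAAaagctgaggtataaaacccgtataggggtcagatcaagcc
Mcpt4: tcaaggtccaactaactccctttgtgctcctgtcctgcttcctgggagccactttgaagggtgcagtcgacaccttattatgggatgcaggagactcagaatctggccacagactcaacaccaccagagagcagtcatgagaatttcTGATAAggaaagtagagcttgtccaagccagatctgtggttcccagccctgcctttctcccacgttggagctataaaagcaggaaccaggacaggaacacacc
The match begins 79 bases before the start in Cma1, 46 in Cpa3 and 103 in Mcpt4. Of the 8 mast cell genes 7 had an entry in the promoter table, and 7 of these had a match in at least 1 promoter. Il4 had 2 annotated starts, and 1 of its promoters had no match. A match was also held by 8718 of all 32851 promoters listed, or 26.5%, in the same window. A match is a string of letters and does not show that a factor binds there, and nothing about binding was measured.

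Cma1 stood higher in hyperoxia lungs at both ages. At P14 its signal was 9.11, 7.86 and 8.80 on the hyperoxia arrays, against 5.19 and 6.01 on the room-air arrays. At P29 it was 8.25, 7.94 and 8.07 on the hyperoxia arrays, against 5.68 and 5.77 on the room-air arrays. The groups did not overlap at either age, and the lowest hyperoxia array at P14 was still above the highest room-air array by more than the whole range of the hyperoxia arrays. The difference at P14 was 2.99 ± 0.31 (SE; 95% interval 2.30 to 3.68), or 7.95-fold, given without a test because the gene was chosen for it. At P29 the difference was 2.36 ± 0.31, or 5.13-fold (adjusted p = 8.7e-05, limma). Group means fell in the order P14 hyperoxia (8.59), P29 hyperoxia (8.09), P29 room air (5.73) and P14 room air (5.60), with arrays overlapping within each exposure and not between them.

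Cpa3 showed the same separation by exposure. Its signal at P14 was 7.82, 6.72 and 7.61 in hyperoxia, against 5.24 and 5.08 in room air. At P29 it was 6.91, 6.74 and 7.08 in hyperoxia, against 5.24 and 5.06 in room air. Every hyperoxia array was above every room-air array, and the room-air values at both ages were almost the same. Cpa3 was higher in hyperoxia by 2.22 ± 0.25 at P14 (4.67-fold, adjusted p = 4.44e-05, limma). At P29 it was higher by 1.75 ± 0.25 (3.38-fold, adjusted p = 0.000142, limma). The P14 and P29 hyperoxia means, 7.38 and 6.91, had overlapping arrays.

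Mcpt4 moved less. At P14 it read 6.34, 5.71 and 5.81 in hyperoxia, against 5.64 and 5.11 in room air. On the P29 arrays the signal was 5.92, 5.61 and 5.92 in hyperoxia, against 5.71 and 5.46 in room air. The arrays did not overlap at P14, where the lowest hyperoxia array was 5.71 and the highest room-air array 5.64, and they overlapped at P29. The gene was higher in hyperoxia by 0.58 ± 0.20 at P14 (1.49-fold, adjusted p = 0.0285, limma). This call was lost without P14 hyperoxia replicate 1 (difference 0.39, adjusted p = 0.0887, limma), without P14 room air replicate 2 (0.31, adjusted p = 0.278, limma) and when arrays were scaled to their 75th percentile (0.48, adjusted p = 0.0691, limma). At P29 the difference was 0.23 ± 0.20 (95% interval -0.21 to 0.67; adjusted p = 0.334, limma).

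**Figure D1:**
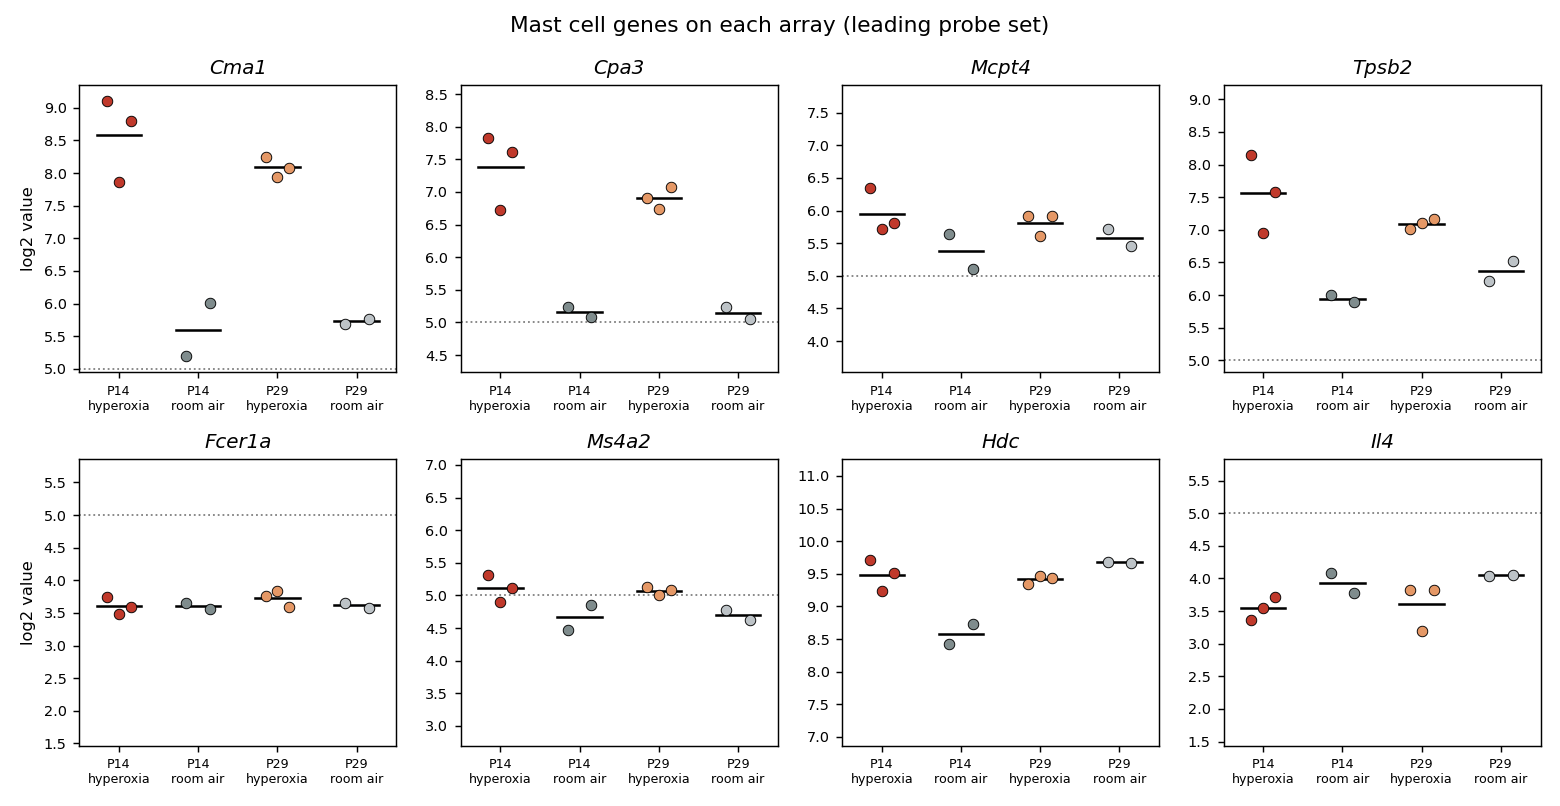
Log2 signal of the leading probe set of each of the 8 genes on every array, by group (points are arrays, bars are group means, the dotted line marks the filter value of 5). Cma1, Cpa3 and Tpsb2 separate by exposure at both ages, Fcer1a and Il4 lie below 5 on every array, and Hdc is lowest on the P14 room-air arrays.

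Tpsb2 encodes the mast cell tryptase mouse mast cell protease 6, a trypsin-like enzyme held as a tetramer on heparin. At P14 its leading probe set read 8.15, 6.95 and 7.58 in hyperoxia, against 6.0 and 5.89 in room air. The P29 values were 7.01, 7.10 and 7.16 in hyperoxia, against 6.21 and 6.52 in room air. Hyperoxia arrays lay above room-air arrays at each age, with a narrower gap at P29. The difference was 1.61 ± 0.25 at P14 (3.06-fold, adjusted p = 0.000339, limma). At P29 it was 0.73 ± 0.25 (1.66-fold, adjusted p = 0.0275, limma), a call that was lost in 7 of 16 alternatives, among them 75th percentile scaling (0.60, adjusted p = 0.0615) and leaving out P29 room air replicate 1 (0.57, adjusted p = 0.167), P29 hyperoxia replicate 2 (0.72, adjusted p = 0.0547) or P29 hyperoxia replicate 3 (0.69, adjusted p = 0.0624).

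The tryptase Tpsab1, the neighbour of Tpsb2 on chromosome 17 with 0 genes between them, had nearly the same pattern. It read 8.21, 6.61 and 7.79 in P14 hyperoxia, against 5.73 and 5.90 in P14 room air. P29 lungs gave 7.09, 6.99 and 7.02 in hyperoxia, against 6.09 and 6.26 in room air. The groups did not overlap at either age. Tpsab1 was higher in hyperoxia by 1.72 ± 0.33 at P14 (3.29-fold, adjusted p = 0.00134, limma) and by 0.86 ± 0.33 at P29 (adjusted p = 0.0439, limma). Tpsab1 and Tpsb2 are close relatives and their probes may share targets, so these are not certain to be separate measurements; RefSeq annotates Tpsab1 as a transcribed pseudogene on the C57BL/6J assembly, and these mice were ICR. The other neighbour, Tpsg1, the membrane-anchored gamma tryptase, was lower in hyperoxia at both ages, with log2 differences of -0.35 ± 0.13 at P14 (adjusted p = 0.0367, limma) and -0.34 ± 0.13 at P29 (adjusted p = 0.039, limma). Its signal lay close to the filter value, from 4.59 to 5.25 over all arrays.

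Fcer1a encodes the IgE-binding alpha chain of the high-affinity receptor. It read 3.74, 3.49 and 3.59 in P14 hyperoxia, against 3.65 and 3.56 in P14 room air. At P29 it read 3.76, 3.84 and 3.59 in hyperoxia, against 3.65 and 3.58 in room air. All 10 arrays were below the filter and the groups overlapped, so its level could not be followed with this probe set. Differences of 0.00 ± 0.10 at P14 and 0.12 ± 0.10 at P29 are given as values only.

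Ms4a2 encodes the beta chain, which amplifies signalling by the IgE receptor. Its promoter is shown because it held 3 motif matches, more than any other of the mast cell genes. They begin 224, 37 and 11 bases before the start, in the stretch chr19:11623720-11623969 on the minus strand of the same build, with capitals as above.
Ms4a2: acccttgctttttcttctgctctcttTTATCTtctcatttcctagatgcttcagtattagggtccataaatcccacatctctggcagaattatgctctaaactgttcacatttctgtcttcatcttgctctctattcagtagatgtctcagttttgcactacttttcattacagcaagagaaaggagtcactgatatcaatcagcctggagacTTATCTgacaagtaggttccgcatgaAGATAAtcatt
The leading probe set of Ms4a2 read 5.32, 4.90 and 5.12 in P14 hyperoxia, against 4.47 and 4.86 in P14 room air. On the P29 arrays the signal was 5.13, 5.0 and 5.09 in hyperoxia, against 4.78 and 4.62 in room air. Arrays did not overlap at either age, although at P14 the lowest hyperoxia array and the highest room-air array were only 4.90 and 4.86. The differences were 0.45 ± 0.14 at P14 (1.37-fold) and 0.38 ± 0.14 at P29 (1.30-fold), in signals close to the filter. They are given as values only, because the gene passed the filter only through its hyperoxia arrays. Leaving out P14 room air replicate 1 gave 0.26 at P14, and leaving out P14 hyperoxia replicate 1 gave 0.35.

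Hdc encodes histidine decarboxylase, which makes histamine, in mast cells and also in basophils, neutrophils and other cells. At P14 it read 9.71, 9.24 and 9.52 in hyperoxia, against 8.42 and 8.73 in room air. The P29 values were 9.34, 9.47 and 9.44 in hyperoxia, against 9.68 and 9.67 in room air. The hyperoxia arrays lay above the room-air arrays at P14 and below them at P29, with no overlap at either age. Hdc was higher in hyperoxia by 0.91 ± 0.13 at P14 (1.88-fold, adjusted p = 0.000202, limma). At P29 the difference was -0.26 ± 0.13 (95% interval -0.55 to 0.03; adjusted p = 0.106, limma). It became a call in 4 alternatives, of which the probe-set mean gave -0.54 (adjusted p = 0.00187, limma). Group means ran from P29 room air (9.68) through P14 hyperoxia (9.49) and P29 hyperoxia (9.42) to P14 room air (8.58), and only P14 room air was apart from its neighbour in this order.

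Il4, the cytokine that drives type 2 responses and IgE switching, read 3.37, 3.54 and 3.72 in P14 hyperoxia, against 4.08 and 3.78 in P14 room air. P29 lungs gave 3.82, 3.19 and 3.83 in hyperoxia, against 4.04 and 4.05 in room air. All values were below the filter, and at each age the hyperoxia arrays lay below the room-air arrays. The differences, -0.38 ± 0.18 at P14 and -0.43 ± 0.18 at P29, carry no test here.

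At P14 all 6 genes that passed the filter were higher in hyperoxia and 0 were lower; over all genes tested 55.0% were called, 32.3% as higher and 22.8% as lower. The arrays of all 6 also did not overlap at P14, as was so for 71.3% of all genes, 39.6% with hyperoxia higher and 31.7% with hyperoxia lower. Because the genes were chosen with this contrast known, and Ms4a2 could pass the filter only by being higher, nothing is read from these counts. At P29 4 of the 6 were higher and 0 lower, where 59.7% of all genes were called, 34.2% as higher and 25.5% as lower. The 4 are Cma1, Cpa3, Tpsb2 and Ms4a2, and the last of these again had to be higher by the filter. At P29 the arrays of 5 of the 6 did not overlap, 4 with hyperoxia higher and 1 (Hdc) with it lower, where 74.3% of all genes did not overlap, 41.2% higher and 33.1% lower. The median difference of the 6 genes was 1.26 at P14 and 0.55 at P29, and that of all 8 was 0.74 and 0.30. Over all genes tested the median was 0.04 at both ages. When arrays were scaled to their 75th percentile, the all-gene median became -0.06 at P14 and -0.10 at P29, and the genes called over the whole array shifted to 3886 higher and 4814 lower at P14, from the 4838 and 3411 of the deposited scale. At P29 the counts were 3831 higher and 5552 lower, where the deposited scale gave 5119 and 3829.

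**Figure D2:**
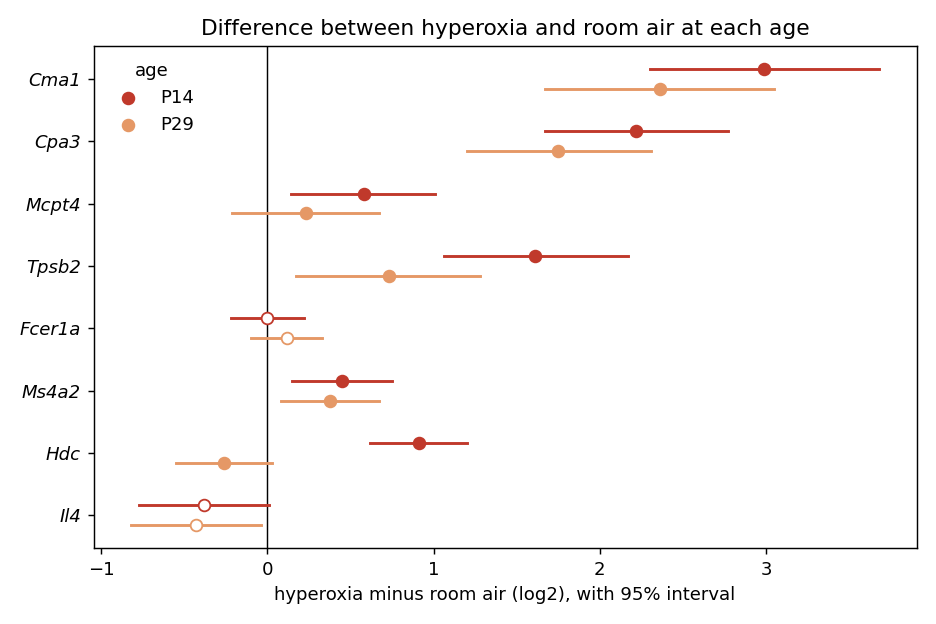
Log2 difference between hyperoxia and room air for each of the 8 genes at P14 and P29, with 95% intervals from the limma fit (open symbols are the genes below the filter, which were not tested). Cma1 and Cpa3 lie farthest above 0 at both ages, and Hdc lies above 0 at P14 and at -0.26 at P29.

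Whether the hyperoxia difference changed with age was tested as an interaction. Of the 6 genes tested Hdc alone passed, with a lower hyperoxia difference at P29 than at P14 (difference of the log2 differences -1.17 ± 0.19, adjusted p = 0.00117, limma), against 22.5% of all genes called, 11.6% as lower. This call held in all 20 alternatives, with values between -1.33 and -0.97. For Cpa3 the difference of differences was -0.47 ± 0.35 (adjusted p = 0.388) and for Tpsb2 -0.89 ± 0.36 (adjusted p = 0.0995; limma for each), both negative and neither called. They became calls without P14 hyperoxia replicate 2, at -0.80 and -1.19 (adjusted p = 0.0111 and 0.00507, limma). For Cma1 it was -0.63 ± 0.44, and -1.0 without that array, given as values only because this quantity contains the P14 difference that chose the gene. The sex of the RNA changed with age in the room-air arrays. Xist was 12.48 and 12.66 and the mean of Y-linked genes 4.04 and 3.57 on the P29 room-air arrays (female), against 6.85 and 6.63 for Xist and 7.68 and 7.94 for the Y-linked genes on the P14 room-air arrays (male). All 3 P14 hyperoxia arrays also carried male RNA, and those of P29 hyperoxia were mixed. Age and sex therefore cannot be told apart in the interaction of Hdc or of any other gene, those given further below included. The same holds for the room-air age comparison. The age comparison in hyperoxia carries this limit in part, because not all P29 hyperoxia arrays were male.

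Age was also compared within each exposure. In hyperoxia 0 of the 6 genes differed between P29 and P14 (0 also at an unadjusted p under 0.05, limma), where 27.1% of all genes were called, 15.4% as higher and 11.7% as lower. The largest differences were those of Cma1 at -0.50 ± 0.28, Cpa3 at -0.47 ± 0.22 and Tpsb2 at -0.47 ± 0.23. Without P14 hyperoxia replicate 2 Cpa3 and Tpsb2 were called lower at P29 (-0.81 and -0.77), and Cma1 gave -0.87, as a value only. In room air Hdc was higher at P29 than at P14 by 1.10 ± 0.14 (2.15-fold, adjusted p = 9.93e-05, limma), a comparison of female P29 with male P14 RNA. It was the only call among the 6, where 41.3% of all genes were called, 22.2% as higher and 19.1% as lower. Tpsb2 gave 0.42 ± 0.28 (adjusted p = 0.255, limma) and Cpa3 -0.01 ± 0.27, neither called.

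The P14 hyperoxia arrays spread widely for the proteases. Cma1 spanned 1.25 over these 3 arrays, Tpsb2 1.20 and Cpa3 1.10, against 0.30, 0.15 and 0.34 over the 3 P29 hyperoxia arrays. Replicate 1 was the highest of the P14 hyperoxia arrays and replicate 2 the lowest for 7 of the 8 genes, Il4 being the exception. The mean signal of the 8 genes was 6.70, 6.05 and 6.47 on these arrays, against 5.34 and 5.38 on the P14 room-air arrays. At P29 it was 6.27, 6.11 and 6.27 in hyperoxia, against 5.62 and 5.59 in room air. The lowest hyperoxia array was thus above every room-air array of its age.

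Where a gene had a further probe set, it did not always follow the leading one. The other Tpsb2 probe set stayed between 3.89 and 4.38 on all arrays, with differences of 0.00 ± 0.14 at P14 and 0.06 ± 0.14 at P29. The other Ms4a2 probe set gave -0.20 ± 0.11 and -0.04 ± 0.11, also at low signal. The differences given for these genes therefore rest on 1 probe set each.

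The other Hdc probe set was bright. At P14 it read 8.65, 8.40 and 8.56 in hyperoxia, against 8.49 and 8.69 in room air. At P29 it read 8.44, 8.65 and 8.57 in hyperoxia, against 9.37 and 9.36 in room air. Its arrays overlapped at P14 and were apart at P29, so the probe sets disagree on which age carries the difference. Fitted over all 34958 probe sets, its difference was -0.05 ± 0.11 at P14 and -0.81 ± 0.11 at P29 (adjusted p = 0.000119, limma). Both probe sets gave a lower hyperoxia difference at P29 than at P14, the other one by -0.76 ± 0.15 (adjusted p = 0.00725, limma), and both were higher at P29 in room air, the other one by 0.77 ± 0.12 (adjusted p = 0.000445, limma).

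**Figure D3:**
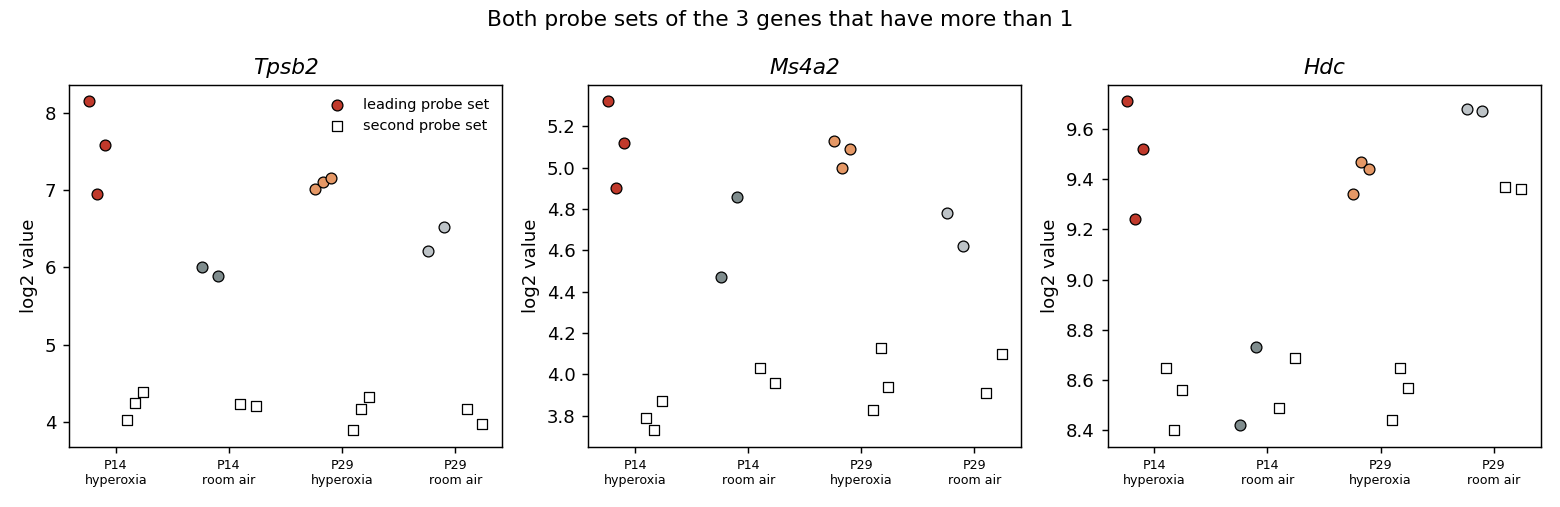
Log2 signal by array of every probe set of Tpsb2, Ms4a2 and Hdc, with the leading probe set beside the other. The other probe sets of Tpsb2 and Ms4a2 stay near 4 on all arrays, and the other Hdc probe set is highest on the P29 room-air arrays, at 9.37 and 9.36.

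The genes most like each protease were found by the root mean square difference of log2 values over the 10 arrays, each gene centred on its own mean, among 14988 other genes. For Cma1 these were Moxd1 at 0.36, Psmc3ip at 0.41 and Cpa3 at 0.42. For Cpa3 they were Apold1 at 0.26, Sfrp2 at 0.34 and Shisa6 at 0.35. The closest genes to Tpsb2 were Tpsab1 at 0.17, Klf4 at 0.24 and Lrrn1 at 0.28. Cpa3 was thus the third nearest gene to Cma1, while Cma1 came 17th for Cpa3. Other pairs of the proteases ranked lower. Tpsb2 came 78th for Cma1 and 28th for Cpa3, and Mcpt4 came 2945th and 2036th. For Tpsb2, Cpa3 came 631st and Cma1 10216th. Ranks that involve Cma1 contain the P14 difference that chose it. The genes with small differences had near neighbours at small distances: Dnm3, Ndufb1 and Cox15 for Mcpt4 (0.16 to 0.17), Mlxip, Dmd and Vapa for Ms4a2 (0.09 to 0.10), and Zfp474, Abca5 and Fry for Hdc (0.11 to 0.13).

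Taken over all lists, other genes of mast cells were called in both directions. The counts of each list below stand beside the shares over all genes tested. Those were 32.3% called higher and 22.8% lower at P14, and 34.2% and 25.5% at P29. The lists are small, so their counts are a description. Of 7 further mast cell proteases 3 passed the filter, of which Tpsab1 was higher and Tpsg1, with signal close to the filter value, lower at both ages. Ctsg, cathepsin G of mast cells and neutrophils, differed by 0.30 ± 0.16 at P14 (adjusted p = 0.124, limma) and 0.00 ± 0.16 at P29. Mcpt1 and Mcpt2, the chymases of mucosal mast cells, were below the filter. The median of the 3 was 0.30 at P14 and 0.00 at P29.

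Of 13 growth factor, transcription factor and surface receptor genes of mast cells 8 were tested, with 3 higher and 1 lower at P14 (median -0.12) and 1 higher and 4 lower at P29 (median -0.26). Kit, the stem cell factor receptor on which mast cells depend and which other lung cells also carry, read 8.32, 8.92 and 8.79 in P14 hyperoxia, against 10.39 and 10.31 in P14 room air. On the P29 arrays the signal was 7.09, 7.47 and 7.46 in hyperoxia, against 10.61 and 10.80 in room air. Kit was lower on every hyperoxia array, opposite to Cma1 and Cpa3. Its difference was -1.67 ± 0.17 at P14 (adjusted p = 2.35e-05, limma) and -3.36 ± 0.17 at P29 (adjusted p = 1.69e-07, limma), and its other probe set gave -2.13 and -2.94. Gata2, a transcription factor of mast cell and blood progenitors, was higher at P14 by 0.59 ± 0.14 (adjusted p = 0.00426, limma) and lower at P29 (-0.37 ± 0.14, adjusted p = 0.0354, limma). Tal1, its partner in blood cells, was higher at P14 by 0.46 ± 0.11 (adjusted p = 0.00581, limma) and gave 0.08 ± 0.11 at P29. Csf2rb, the shared receptor chain for interleukin 3 and related cytokines, gave -0.16 ± 0.13 at P14 and was lower at P29 (-0.64 ± 0.13, adjusted p = 0.0018, limma).

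Of 12 genes that carry the IgE receptor signal 11 were tested. At P14 2 were higher and 2 lower (median -0.04), and at P29 1 was higher and 7 lower (median -0.40). The P14 counts were below the shares of all genes, so nothing is read from them. Fcer1g, the signalling gamma chain shared with other Fc receptors of myeloid cells, read 7.83, 7.71 and 7.96 in P14 hyperoxia, against 8.82 and 8.52 in P14 room air. The P29 values were 8.45, 8.43 and 8.54 in hyperoxia, against 9.28 and 9.33 in room air. The gamma chain was lower in hyperoxia at both ages, with differences of -0.84 ± 0.10 and -0.83 ± 0.10 (both called by limma). The kinase Syk and the adaptor Lat gave -0.17 ± 0.14 and -0.32 ± 0.18 at P14, where neither was called. At P29 Syk was lower (-0.83 ± 0.14, adjusted p = 0.000522, limma) and so was Lat (-1.40 ± 0.18, adjusted p = 8.05e-05, limma). The other Syk probe sets gave -0.63, 0.03 and -0.67 at P14, and -0.76, 0.15 and -0.75 at P29. The Syk probe sets thus disagree at P14. Plcg2, a phospholipase of immune cells, was lower at both ages (-0.42 and -0.76).

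Of 9 granule and lipid mediator genes 6 were tested, with 0 higher and 4 lower at each age (medians -0.46 and -0.43). Alox5ap and Alox5, which start leukotriene synthesis in myeloid cells, were lower at P14 (-0.72 ± 0.09 and -0.39 ± 0.10) and at P29 (-0.94 ± 0.09 and -0.77 ± 0.10). Ndst2, which sulfates heparin in mast cells, was lower at both ages (-0.52 ± 0.07 and -0.44 ± 0.07). Srgn, the granule proteoglycan of many blood cells, gave -0.07 ± 0.08 at P14 and was lower at P29 (-0.43 ± 0.08, adjusted p = 0.000589, limma).

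Genes that break down or sense histamine were few. Of 6 such genes 5 were tested, with 1 higher and 1 lower at each age (medians -0.17 and -0.13). These counts were below the shares of all genes, so nothing is read from them. Hnmt, which inactivates histamine by methylation, read 8.13, 7.99 and 8.11 in P14 hyperoxia, against 6.66 and 6.84 in P14 room air. P29 lungs gave 8.59, 8.52 and 8.59 in hyperoxia, against 8.10 and 8.02 in room air. It was higher in hyperoxia by 1.33 ± 0.08 at P14 (2.51-fold, adjusted p = 1.35e-06, limma) and by 0.51 ± 0.08 at P29 (adjusted p = 0.000398, limma), and the difference was smaller at P29 (-0.82 ± 0.12, adjusted p = 0.000678, limma). Aoc1, the diamine oxidase that degrades histamine outside cells, was lower at both ages (-0.36 ± 0.11 and -0.59 ± 0.11). The receptors Hrh1 and Hrh3 were not called at either age, with differences between -0.17 and -0.13.

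Of 11 type 2 cytokines, alarmins and their signalling genes 7 were tested, with 4 higher and 0 lower at P14 (median 0.39) and 2 higher and 2 lower at P29 (median -0.16). Tslp, an epithelial alarmin that acts on mast cells among others, read 8.44, 8.61 and 8.56 in P14 hyperoxia, against 6.67 and 6.86 in P14 room air. At P29 it read 8.16, 8.23 and 8.03 in hyperoxia, against 7.19 and 7.29 in room air. Its arrays were far apart, with differences of 1.77 ± 0.09 at P14 (3.41-fold, adjusted p = 4.37e-07, limma) and 0.90 ± 0.09 at P29 (1.87-fold, adjusted p = 1.73e-05, limma), and the P29 difference was smaller (-0.87 ± 0.13, adjusted p = 0.00099, limma). Il13ra1, a receptor chain for interleukins 4 and 13, was higher by 0.85 and 0.88, although its other 4 probe sets gave values from -0.30 to 0.52 at P14. Gata3, a transcription factor of type 2 lymphocytes and other cells, was higher at P14 (0.51 ± 0.14) and lower at P29 (-1.03 ± 0.14). Il4ra, the receptor chain that binds interleukin 4, was higher at P14 by 0.39 ± 0.07, but its other probe sets gave -0.67 and 0.25. The cytokines Il3, Il5, Il13 and Il25 were below the filter, as Il4 was.

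**Figure D4:**
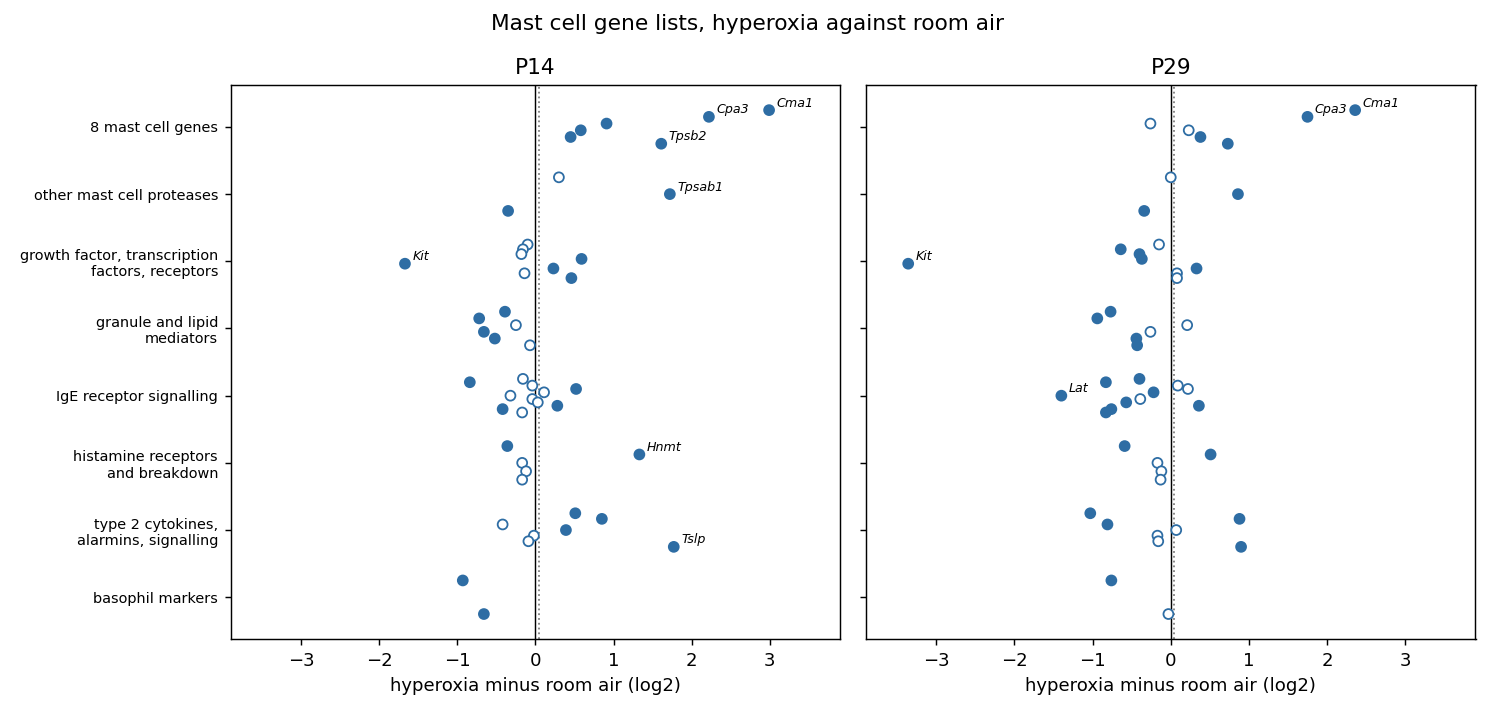
Log2 difference between hyperoxia and room air at P14 and P29 for every tested gene of the mast cell lists and the basophil markers (filled points were called by limma at an adjusted p of 0.05, open points were not, and the dotted line is the median of all genes). At P14 the 6 tested of the 8 mast cell genes lie above 0, while granule and lipid mediator genes and basophil markers lie below it. The remaining lists hold genes on both sides of 0 at P14. Kit lies lowest at P29, at -3.36.

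Markers of other cells moved as well. Markers of neutrophils, which can express Hdc, were lower for all 9 tested of 10 at both ages (medians -1.31 and -1.48), with a mean signal of 6.49 to 6.58 in hyperoxia against 7.71 to 7.74 in room air at P14, and of 6.16 to 6.31 against 7.70 to 8.13 at P29. Among these markers Cxcr2 and Mpo passed the filter only through room-air arrays and so had to be lower in hyperoxia. Over all genes tested 22.8% were called lower at P14 and 25.5% at P29. Of 5 pan-leukocyte markers 1 was higher and 3 lower at P14, and 0 were higher and 4 lower at P29. The 1 higher at P14 was Laptm5 (0.91), whose other probe sets gave values from -0.38 to -0.14. Basophils share Fcer1a, Ms4a2, Hdc and Il4 with mast cells. Their marker Mcpt8 was lower at P14 (-0.66 ± 0.13, adjusted p = 0.00176, limma) and gave -0.03 ± 0.13 at P29. The Mcpt8 signal lay close to the filter value, from 4.60 to 5.72 over all arrays. Il3ra, another basophil marker, was lower at both ages. The eosinophil markers Epx, Prg2, Prg3, Ccr3 and Il5ra stayed under 5 on all arrays. Siglecf, the only marker of that list to be tested, was called lower at both ages (-0.44 and -2.85). It passed the filter only through the P29 room-air arrays (6.79 and 7.25) and so had to be lower in hyperoxia at P29. At P14 its signal was under 5 on every array. The part of any of these cells in the Hdc values was not tested.

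Markers of tissues near the dissected lung differed between the P14 groups too. All 5 mesothelium markers were higher in hyperoxia at P14 (median 1.12), with a mean signal of 8.58 to 8.73 against 7.35 to 7.80 in room air, and at P29 1 was higher and 1 lower (8.0 to 8.49 against 8.27 to 8.28). Of 6 heart muscle markers 4 were higher and 0 lower at P14 (9.70 to 9.98 in hyperoxia against 9.07 to 9.35 in room air), and 1 was higher and 3 lower at P29 (9.74 to 10.58 against 10.21 to 10.34). Beside these counts, 32.3% of all genes tested were called higher and 22.8% lower at P14, and 34.2% and 25.5% at P29. Among the P14 hyperoxia arrays the mesothelium mean was 8.72, 8.58 and 8.73 and the heart mean 9.70, 9.98 and 9.97. The part of adjoining tissue in the P14 protease values was not tested. Lung epithelium markers averaged between 12.54 and 13.31 over all arrays, so the lung label held by its markers.

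**Figure D5:**
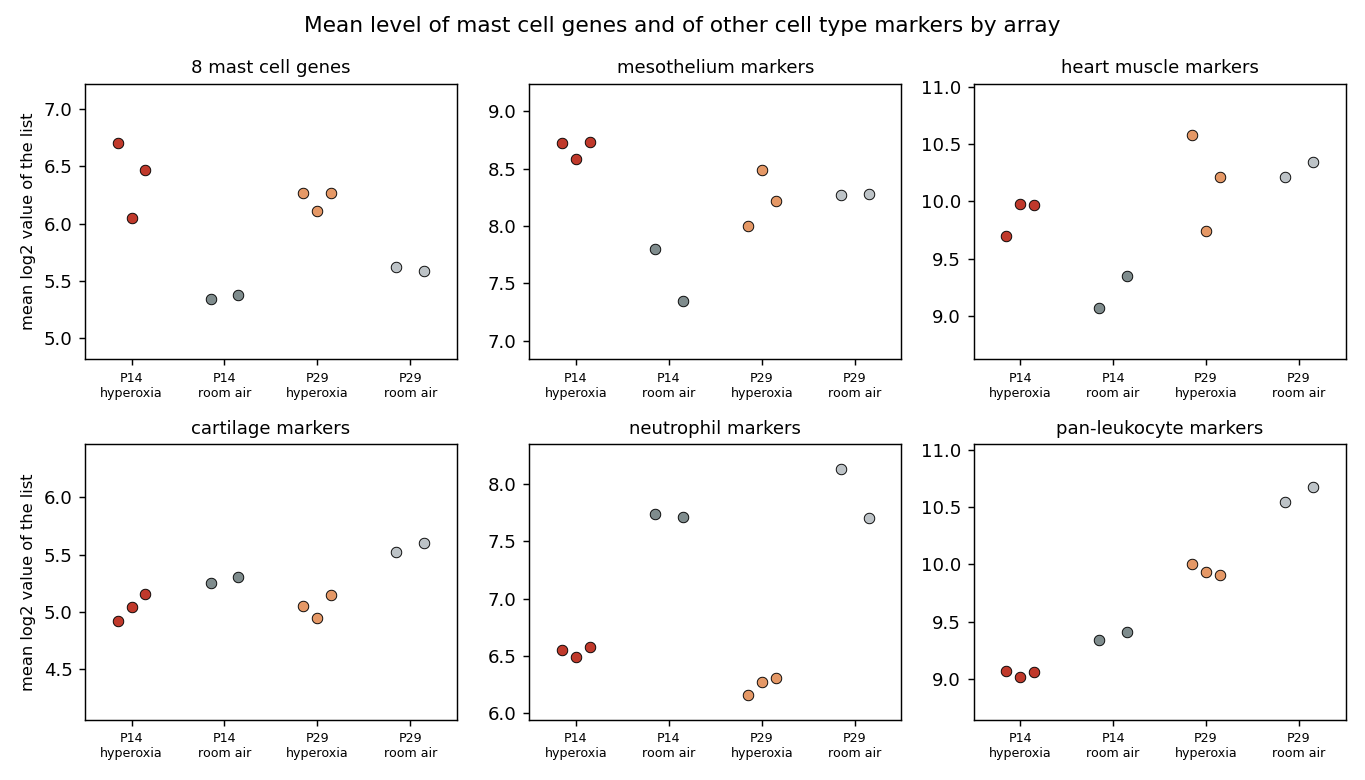
Mean log2 signal on each array of the 8 mast cell genes and of the marker lists of other cells and tissues, by group. The mast cell genes average 6.05 to 6.70 in P14 hyperoxia and 5.34 to 5.38 in P14 room air, and neutrophil markers are lower in hyperoxia at both ages.

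RNA controls and sex-linked transcripts also differed with exposure or within a group. The 3′ minus 5′ signal of the actin control, which grows when RNA is less intact or less completely copied, was 1.69 ± 0.46 in P14 hyperoxia against 0.43 ± 0.16 in P14 room air, and 1.81 ± 0.08 in P29 hyperoxia against 0.63 ± 0.16 in P29 room air (SD, n = 3 and 2). Within P14 hyperoxia it was 1.33, 1.54 and 2.21 on replicates 1, 2 and 3. The same difference of the Gapdh control was 0.71 ± 0.35 in P14 hyperoxia against -0.01 ± 0.18 in P14 room air, and 0.62 ± 0.04 in P29 hyperoxia against 0.07 ± 0.05 in P29 room air. The 18S ribosomal RNA control averaged 9.32 ± 0.49 in P14 hyperoxia against 7.51 ± 0.21 in P14 room air, and 8.86 ± 0.19 in P29 hyperoxia against 7.88 ± 0.01 in P29 room air. With the actin control as a term in the limma fit, 0 of the 6 genes were called at either age, and over all 14989 genes the calls fell to 809 higher and 578 lower at P14 and to 1628 higher and 1277 lower at P29. In that fit Cma1 gave 2.69 at P14, without a test, and 2.07 at P29 (adjusted p = 0.0661, limma), and Cpa3 2.17 and 1.70 (adjusted p = 0.0515 and 0.0624, limma). The controls move with exposure, and their part in the differences cannot be told apart from that of hyperoxia by these arrays. Xist and Y-linked transcripts showed male, female and mixed RNA on P29 hyperoxia replicates 1, 2 and 3, against female RNA on both P29 room-air arrays, and male RNA on all P14 arrays. Against P29 room air, the female P29 hyperoxia array alone gave 2.22 ± 0.44 for Cma1 (adjusted p = 0.00334, limma) and 1.58 ± 0.35 for Cpa3 (adjusted p = 0.00541, limma), with that lone array assumed to vary like the other groups.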

How the data were processed

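Lung RNA of 10 samples was hybridised to Affymetrix mouse expression arrays. The values used are log2 signals as the authors deposited them; the submitters' processing notes name Partek 6.4 and GCRMA, and for their settings and the genome build the sources used here give nothing. Groups and replicate numbers came from the sample titles. Of 45101 probe sets, 34958 had 1 gene symbol in the platform annotation, 932 had several and 9211 none, and only the first were used. Entrez numbers of 34754 matched RefSeq GRCm38.p6, without a change of symbol. The brightest probe set stood for its gene, and 14989 of 18194 genes had a log2 value of at least 5 on at least 2 arrays.

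A model of the 4 group means was fitted to all 10 arrays in R 4.3.3 by lmFit and eBayes of limma 3.58.1 (6 residual and 5.09 prior degrees of freedom), two-sided, with Benjamini-Hochberg adjustment over the genes kept and a threshold of 0.05. On simulated data of the P14 comparison, with 14989 genes, 53% of 100 genes changed by 0.5 and 94% of 100 changed by 1 were called, with 9 false calls among 156. Only these genes were changed in the simulation, and its noise was independent between genes. In the data 55.0% of genes were called at P14, so the simulated shares need not hold there. The number of arrays limits the precision. Arrays of a group correlated at 0.993 to 0.996. Same-numbered samples of different groups did not deviate together (correlations -0.09 to 0.20), so numbers were not taken as pairs.

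The 8 genes and all lists were chosen with earlier results of these data known. Named from each other list were the genes of smallest p at P14 and P29, up to 4, and for each tested gene of the 8 its 3 most similar genes. Marker lists of T and B cells (0 higher and 7 lower of 7 tested at each age), cartilage (0 and 2 of 3 at P14, 0 and 3 at P29), fat (0 and 1 of 3, 0 and 3), keratins (1 and 1 of 2, 1 and 0), red cells (0 and 1 of 2 at each age) and lung epithelium (2 and 1 of 7, 1 and 4) were also counted. The T cell marker Cd2 passed the filter only through room-air arrays, and the fat markers Adipoq and Cidec only through P29 room-air arrays. Cd2 therefore had to be lower in hyperoxia, as had Adipoq and Cidec at P29. Over all genes tested 32.3% were called higher and 22.8% lower at P14, and 34.2% and 25.5% at P29. Alternatives were other choices of probe set, filters, scalings, spread models, samples in the fit, a replicate block, the actin control as a term, and leaving out arrays. RefSeq promoters were searched with Python 3.11.15.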

Additional observations from a re-analysis of the deposited data

Results flagged for a closer look

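Hdc is listed here because its hyperoxia effect differed between the ages by a test of that difference. The log2 difference between hyperoxia and room air was lower at P29 than at P14 (-1.17 ± 0.19, adjusted p = 0.00117, limma interaction over 14989 genes). On the leading probe set the hyperoxia arrays were higher than the room-air arrays in 3 of 3 cases at P14 and lower in 3 of 3 at P29. Arrays did not overlap for 71.3% of all genes at P14 and 74.3% at P29, so nothing is read from this separation. The P29 difference itself was not called (-0.26 ± 0.13, adjusted p = 0.106, limma). The other Hdc probe set gave -0.76 ± 0.15 for the difference of effects (adjusted p = 0.00725, limma). Its arrays overlapped at P14 (-0.05 ± 0.11) and were apart at P29. The P29 room-air arrays held female RNA (Xist 12.48 and 12.66) and the P29 hyperoxia arrays were mixed, whereas all P14 arrays held male RNA (Xist 6.63 to 6.99), so age and sex cannot be told apart in this difference.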

How the results depend on the processing

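Over 477 values of single genes under the alternatives, 424 kept their direction and side of the threshold, 28 lost a call, 11 gained a call and 14 changed sign, none of the last a called value. Cma1 stayed between 2.58 and 3.40 at P14 and between 2.07 and 2.43 at P29, Cpa3 between 2.00 and 2.55 and between 1.58 and 1.85. Other genes moved by more than 1.5 times: over the alternatives Tpsb2 ran from 0.81 to 1.92 at P14 and from 0.39 to 0.92 at P29, Hdc from 0.43 to 1.07 and from -0.54 to -0.20, Mcpt4 from 0.31 to 1.30 and from 0.02 to 0.91, and Ms4a2 from 0.26 to 0.65 and from 0.24 to 0.50. The lowest Tpsb2 and Hdc values at P14 came from the mean of all probe sets. Of the mast cell genes, 6 were called at P14 and 0 with the actin control as a term. The 6 include Cma1, which was chosen by its P14 difference, and Ms4a2, which had to be higher by the filter. Ms4a2 is also among the genes called at P29. Over all genes tested 55.0% were called at P14 and 59.7% at P29. At P29 4 were called, 0 with the actin term, 2 with the replicate block (Cma1 and Cpa3) and 2 with P29 hyperoxia replicate 2 as the only array of its group. For age in room air 1 was called, and 2 when only the groups compared were fitted. Leaving out 1 array at a time gave 4 to 6 calls at P14, 2 to 3 at P29 (2 without P29 hyperoxia replicate 3 or P29 room air replicate 1), 1 to 4 for the difference of effects and 0 to 3 for age in hyperoxia (the highest of both without P14 hyperoxia replicate 2; they include Cma1, which was chosen by its P14 value), and 1 to 1 for age in room air. The cause of these changes was not tested.

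Sign changes came with 75th percentile scaling for Cpa3 with age in room air (0.01) and otherwise when 1 array was left out. With age in room air, the ranges were -0.28 to 0.54 for Cma1, -0.10 to 0.08 for Cpa3, -0.05 to 0.48 for Mcpt4 and -0.16 to 0.23 for Ms4a2. With age in hyperoxia they were -0.20 to 0.04 for Hdc, -0.26 to 0.06 for Mcpt4 and -0.14 to 0.07 for Ms4a2. For the difference of effects the Ms4a2 range was -0.27 to 0.12. With a filter of at least 7 on 2 arrays, Mcpt4 and Ms4a2 gave no value. The fit of only the groups compared gives no value for the difference of effects. The replicate block changed no other call than Tpsb2 (0.71, adjusted p = 0.0538, limma) and Ms4a2 (0.37) at P29. Quantile normalization gave 4099 and 3693 at P14 and 4325 and 4110 at P29. Signal near the filter limits Ms4a2 and Mcpt4, and Fcer1a and Il4 could not be followed.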
